A study of Mus musculus with 8 samples.

Results

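Antigen presentation by MHC molecules was followed through 9 genes, out of 55487 in the table, that were listed by name, without a threshold on their values, when earlier results of these data were known. They are the class I heavy chains H2-K1 and H2-D1, their light chain B2m, the peptide transporter subunit Tap1, the loading factor Tapbp, the class II invariant chain Cd74 and the class II chains H2-Aa, H2-Ab1 and H2-Eb1. All 9 were found in the table, and all 9 had at least 10 counts in every library. RNA came from the muscle of 8 male C57BL/6J mice aged 10 weeks. In each mouse, casts immobilized the hindlimbs for 8 days, and K14Q MOTS-c was injected intraperitoneally 2 times per day to a dose of 15 mg/kg/day. MOTS-c is a peptide encoded in the mitochondrial genome, and K14Q names its form with glutamine in place of lysine. The sample labels name the vastus lateralis, whereas the design text of the series and the study's methods name the gastrocnemius. All 8 mice belong to this 1 group. Untreated, mobile and wild-type MOTS-c mice were not analysed here, so no value below is a treatment effect, and every comparison is between genes or between mice of the same treatment.

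MHC class I molecules are carried by nearly all nucleated cells. A heavy chain such as H2-K1 or H2-D1 pairs with beta-2-microglobulin (B2m) and receives cytosolic peptides that the TAP transporter pumps into the endoplasmic reticulum and that tapasin (Tapbp) helps to load. MHC class II molecules are pairs of an alpha and a beta chain made mainly by antigen-presenting cells such as dendritic cells, B cells and macrophages, and the invariant chain Cd74 guards their peptide groove on the way to the endosome. Interferon gamma raises both classes, and the coactivators Nlrc5 (class I) and Ciita (class II) act on promoters that carry X and Y boxes. In the C57BL/6 strain the I-A molecule is built from H2-Aa and H2-Ab1, and no I-E molecule is made because the Ea gene is inactive, although H2-Eb1 is transcribed.

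The libraries held between 23985356 and 33012497 recovered counts, with size factors from 0.906 to 1.204. Values are normalized counts, that is, the number of reads on a gene divided by the size factor of its library. The labelled tissue was checked by its markers, and all 9 muscle fibre markers were tested, with a summed level between 2048354 and 4128596 normalized counts per mouse. Mice 3 and 5 stood apart in red blood cell markers. The summed level of 5 such genes was 24713 and 28320 in these mice, and between 7060 and 13279 in the other 6. These mice also had the largest size factors, 1.204 and 1.09, where the other 6 had at most 1.02, and several relations are therefore also given without both mice. None of the T and NK cell or neutrophil markers reached the count minimum in every library. No marker list was used to choose or to exclude a mouse.

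**Figure D1:**
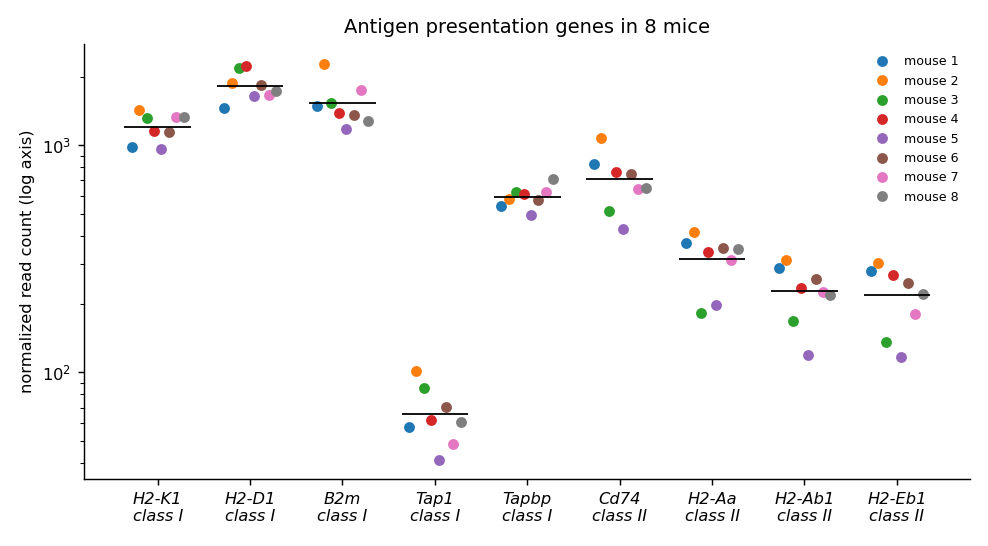
Normalized read count (log axis) of the 9 antigen presentation genes, with 1 point per mouse and a black line at the mean of the 8 mice. Mouse 2 (orange) was the highest for 7 of the 9 genes, and mice 3 (green) and 5 (purple) were the lowest for all 4 class II genes.

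The class I heavy chains were expressed at similar levels in all mice. H2-K1 (ENSMUSG00000061232, chromosome 17, 33996017 to 34000347 of GRCm38, minus strand, protein coding) ran from 964 in mouse 5 through a median of 1237 to 1427 normalized counts in mouse 2. Its mean was 1207 ± 173 (SD, n = 8), a coefficient of variation (CV, SD over mean) of 14.3%. H2-D1 (ENSMUSG00000073411, chromosome 17, 35262730 to 35267499) was lowest in mouse 1 at 1455, had a median of 1786 and was highest in mouse 4 at 2229.8. The mean of H2-D1 was 1828 ± 269 (SD, n = 8) with a CV of 14.7%. Both heavy chains varied about as much as the median tested gene, whose CV was 15.6%, and their order of mice differed, since mice 3 and 4 exceeded mouse 2 for H2-D1. H2-K1 amounted to between 0.517 and 0.805 of the normalized count of H2-D1 in each mouse. Reads of the heavy chains can be shared. Of the runs of 50 bases in the longest transcript of H2-K1, 8.11% also occur in a transcript of another gene, and 14.3% of those of H2-D1 do, and the handling of such reads is not given in the sources used here.

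Upstream of the H2-K1 start, the window holds the class I kappa B site, a binding site of NF-kappa B described in class I promoters. The sequence below shows the 250 bases before the RefSeq start of H2-K1 (chr17:34000348-34000597 of GRCm38.p6, minus strand). The line after it shows 30 bases around the same site at H2-D1 (chr17:35262914-35262943, plus strand). The H2-D1 window lies in an exon annotated by GENCODE, and its rest is not shown. Both are given because a part of the window is nearly identical in these genes. Capitals mark the motif matches, which at H2-K1 are the kappa B site (the longest run of capitals) at -111, TGACG at -41 and CCAAT on the reverse strand (ATTGG) at -16, counted from the start.
H2-K1: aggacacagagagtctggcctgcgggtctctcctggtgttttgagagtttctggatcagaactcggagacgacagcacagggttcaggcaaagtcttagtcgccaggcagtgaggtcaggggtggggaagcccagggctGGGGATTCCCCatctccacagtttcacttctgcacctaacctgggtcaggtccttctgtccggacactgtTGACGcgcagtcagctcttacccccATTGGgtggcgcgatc
H2-D1: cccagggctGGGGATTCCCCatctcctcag
The best local match of the upstream windows of H2-K1 and H2-D1 spanned 177 aligned columns, of which 161 (91.0%) were identical. The kappa B site was found on either strand in 10 of the 32817 RefSeq promoter windows (0.0305%), and these were 2 windows of H2-K1, 1 each of H2-D1 and H2-Q6, and 6 windows of genes that are no class I gene. Although their windows hold the same site, the levels of H2-K1 and H2-D1 over the 8 mice had r = 0.44 (exact permutation p = 0.27; for rho = 0.40, p = 0.33), and r = -0.35 without mice 1 and 5, the farthest from the median of H2-K1.

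B2m, the light chain of every class I molecule, was lowest in mouse 5 at 1173, had a median of 1437 and was highest in mouse 2 at 2284 normalized counts (ENSMUSG00000060802, chromosome 2, 122147686 to 122153083). Its mean was 1532 ± 351 (SD, n = 8), and the CV of 22.9% was higher than that of 76.4% of the tested genes. Mouse 2 stood above the next mouse, mouse 7, which had 1753. Reads of B2m overlap the annotation of Patl2 in part. The 250 bases before its start (chr2:122147437-122147686 of GRCm38.p6, plus strand) are shown because they hold the interferon motif searched. The interferon-stimulated response element lies at -139, TGACG at -78 and CCAAT on the reverse strand at -53.
B2m: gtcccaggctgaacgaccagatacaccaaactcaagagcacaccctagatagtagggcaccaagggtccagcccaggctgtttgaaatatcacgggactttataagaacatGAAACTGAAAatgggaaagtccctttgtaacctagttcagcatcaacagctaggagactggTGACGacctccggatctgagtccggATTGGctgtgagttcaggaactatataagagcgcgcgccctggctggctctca
The interferon motif occurs in 3.43% of the 32817 windows, and B2m was the member whose window held it among the 7 members with a promoter sequence.

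Tap1, a subunit of the peptide transporter, was the member with the fewest reads. It had 44 to 103 counts per library and ran from 41.3 in mouse 5 through a median of 60.9 to 101.6 normalized counts in mouse 2 (ENSMUSG00000037321, chromosome 17, 34187553 to 34197225). Its mean was 65.8 ± 19.7 (SD, n = 8), with a CV of 29.9%. At this depth counting error carries weight, and the variance between mice was 5.79 times the counting variance, against 78.2 times for B2m. Mouse 3, low for class II, was the second highest for Tap1 at 85.6. Tapbp (ENSMUSG00000024308, chromosome 17, 33915899 to 33929292) varied least of the 9. It was lowest in mouse 5 at 491, had a median of 594 and was highest in mouse 8 at 713 normalized counts, with a mean of 593 ± 65.6 (SD, n = 8) and a CV of 11.1%. Of its runs of 50 bases, 21.02% are shared with another gene, nearly all with the overlapping Gm19412.

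The 4 class II genes varied together from mouse to mouse. Cd74, the invariant chain (ENSMUSG00000024610, chromosome 18, 60803848 to 60812652), ran from 428 in mouse 5 through a median of 699 to 1078 normalized counts in mouse 2. Its mean was 707 ± 199.98 (SD, n = 8) with a CV of 28.3%. H2-Aa, the I-A alpha chain (ENSMUSG00000036594, chromosome 17, 34282744 to 34287823, minus strand), was lowest in mouse 3 at 182, had a median of 344 and was highest in mouse 2 at 415, with a mean of 315 ± 82.7 (SD, n = 8). In H2-Aa, mice 3 and 5, at 182 and 198, lay apart from the other 6, whose lowest value was 312. H2-Ab1, the I-A beta chain (ENSMUSG00000073421, chromosome 17, 34257689 to 34269419), ran from 119 in mouse 5 through a median of 231 to 313 in mouse 2, with a mean of 228 ± 62.3 (SD, n = 8). H2-Eb1, the I-E beta chain (ENSMUSG00000060586, chromosome 17, 34305867 to 34316674), ran from 117 in mouse 5 through a median of 235 to 302 in mouse 2, and its mean was 219 ± 67.7 (SD, n = 8). The annotation of H2-Eb1 overlaps Gm20513 and that of Cd74 overlaps Mir5107. For each of the 4 genes, mouse 2 was the highest, mouse 1 was the second highest, and mice 3 and 5 were the lowest. The CVs of the class II genes were between 26.2% and 30.9%, with a median of 27.8%, and each was above the CV of at least 83.4% of the tested genes. In whole muscle, fewer cells of a type and less RNA per cell cannot be told apart.

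**Figure D2:**
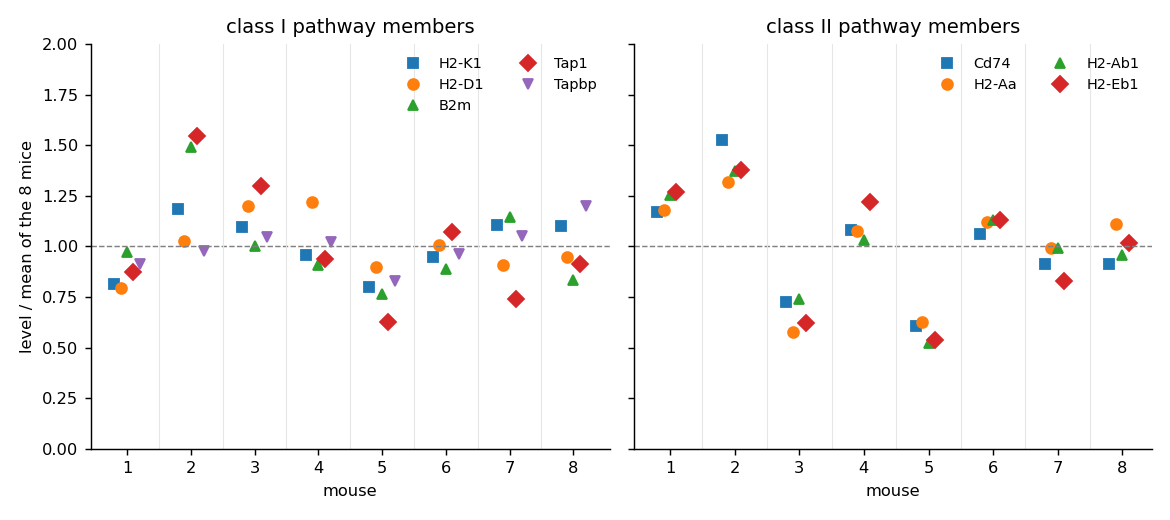
Level of each class I (left) and class II (right) gene in each mouse, divided by its mean over the 8 mice, with a dashed line at the mean. The class II symbols of a mouse lie close to each other, with mice 3 and 5 below and mouse 2 above the mean, whereas the class I symbols of mice 2, 3 and 8 are spread.

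Ratios within a mouse were compared next. Cd74 had between 2.85 and 3.59 times the normalized count of H2-Ab1, with a CV of the ratio of 8.98%, although each gene alone varied by 28.3% and 27.3%. The CV of the ratio of Cd74 to H2-Eb1 was 11.5%, and that of H2-Aa to H2-Eb1 was 11.9%. Within class I, the CV was between 9.38% (Tapbp to H2-K1) and 29.7% (Tap1 to Tapbp), against 8.52% to 13.7% for the ratios within class II. Across the classes, it was between 20.3% (Cd74 to B2m) and 46.7% (Tap1 to H2-Aa). The upstream windows of H2-Aa (chr17:34287824-34288073 of GRCm38.p6, minus strand) and H2-Eb1 (chr17:34305617-34305866, plus strand) are printed to show the order of the X and Y box letters they share. Capitals mark GCAAC (X1 box), TGACGTCA (X2 box) and CCAAT (Y box core) on either strand.
H2-Aa: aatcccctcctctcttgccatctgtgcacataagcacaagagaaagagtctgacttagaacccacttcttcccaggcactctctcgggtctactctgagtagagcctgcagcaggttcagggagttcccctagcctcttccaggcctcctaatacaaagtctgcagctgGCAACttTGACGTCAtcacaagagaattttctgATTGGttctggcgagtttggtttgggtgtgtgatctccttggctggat
H2-Eb1: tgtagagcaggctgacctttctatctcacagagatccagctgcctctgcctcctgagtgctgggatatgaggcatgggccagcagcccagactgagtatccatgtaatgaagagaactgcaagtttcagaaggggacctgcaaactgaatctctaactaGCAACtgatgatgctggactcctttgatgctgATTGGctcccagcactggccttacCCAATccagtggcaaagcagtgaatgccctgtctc
In H2-Aa, GCAAC lies at -81, TGACGTCA at -74 and reverse CCAAT at -48, and in H2-Eb1, GCAAC lies at -91 and CCAAT at -59 (reverse) and -35. The distance from GCAAC to the nearest Y box letters downstream was 28 bases in H2-Aa and 27 bases in H2-Eb1. Alone, these letters are common, since CCAAT occurs in 37.4% of the windows, GCAAC in 35.2%, TGACG in 20.8% and TGACGTCA, which includes TGACG on both strands, in 1.79%. TTCNNNGAA, a STAT site, occurs in 8.29% of the windows and in none of the 7 members' windows. A match of letters is a description and not a shown binding site.

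Levels between genes were compared per kb of the longest transcript of each gene, in normalized counts per kb. The order was B2m, H2-D1, H2-K1, Cd74, Tapbp, H2-Ab1, H2-Eb1, H2-Aa and Tap1. B2m had 1782 ± 408 (SD, n = 8) per kb, H2-K1 had 644 ± 92.3 (SD, n = 8), and Tap1 was last with 16.8 ± 5.03 (SD, n = 8). Each neighbour was tested within mice by an exact permutation test over 256 sign flips, two-sided, whose smallest p is 0.0078. For 6 of the 8 neighbouring pairs, all 8 mice showed the direction (exact permutation p = 0.0078). H2-K1 exceeded Cd74 in 6 of 8 mice (exact permutation p = 0.031), by 0.40 ± 0.40 on the log2 scale (SD, n = 8). Tapbp and H2-Ab1 were not separated beyond their spread, with Tapbp higher in 5 of 8 mice (exact permutation p = 0.31). The order depends on the length used for each gene. With the union of all annotated exons, Cd74 (421 per kb) and H2-K1 (411 per kb) changed places, and H2-Ab1 (88.9 per kb) fell below H2-Eb1 (113 per kb). B2m, H2-D1 and Tap1 kept their ranks.

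**Figure D3:**
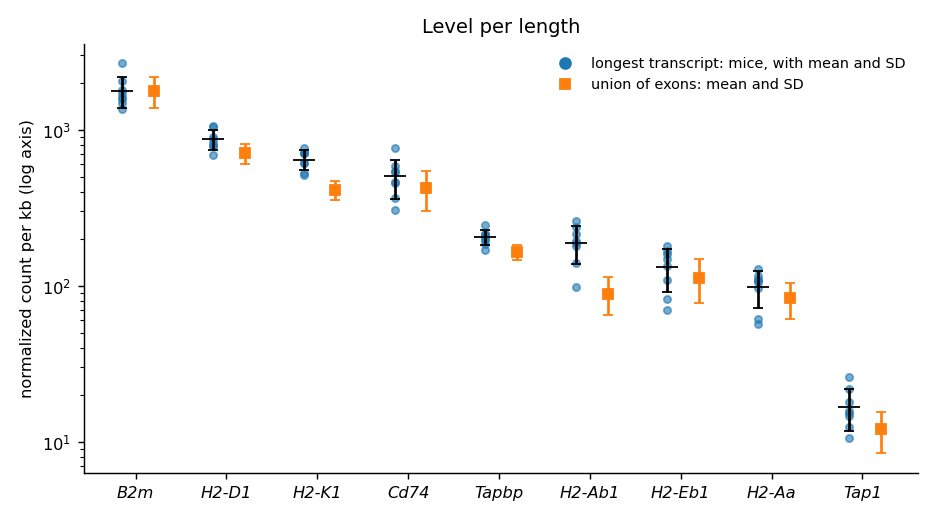
Normalized count per kb (log axis) of the 9 genes, ordered by mean. Blue points are the 8 mice with the mean and SD in black, calculated with the longest transcript, and orange squares are the mean and SD with the union of exons. H2-Ab1 moves from 188 to 88.9 per kb between these lengths, while B2m stays at 1782.

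Whether the genes vary together was asked with Pearson's r of log2(normalized count + 1) over the 8 mice. Its p came from the 40320 pairings of mice (exact permutation test, two-sided, smallest p 2.48e-05), and each member was compared with 15134 other genes, so adjusted p-values (Benjamini-Hochberg) cover all of these. No gene, members included, passed an adjusted exact permutation p of 0.05 with any of the 9 members. An edgeR quasi-likelihood fit of the recovered counts called 4 genes in the positive and 8 in the negative direction with H2-Ab1 at an adjusted p under 0.05 and 0 with the other 8 members, for which 177 to 852 genes were positive at an unadjusted p under 0.05. Counts below are therefore of unadjusted p under 0.05 and are read against the share of all tested genes that reached it. With mice left out, a call can be lost although r stays or rises, since a larger r is generally needed to reach this threshold. All 6 class II pairs had a positive r past this threshold, between 0.90 and 0.96, with a mean of 0.935, and rho between 0.90 and 1. The share of all tested genes with a positive r past it was 3.2% for Cd74, 2.74% for H2-Aa, 4.08% for H2-Ab1 and 2.41% for H2-Eb1. The most alike pair was Cd74 and H2-Ab1, with r = 0.96 (exact permutation p = 9.92e-05; for rho = 0.95, p = 0.0011, adjusted exact permutation p over all genes 0.28 for H2-Ab1). Cd74 and H2-Eb1 ranked the 8 mice identically (rho = 1, exact permutation p = 4.96e-05, the smallest it can give), with r = 0.95 (exact permutation p = 2.48e-05). H2-Aa with Cd74 was the least alike, at r = 0.90 (exact permutation p = 0.0016). Without the 2 mice farthest from the median of the gene on the x axis, r of the 6 pairs was between 0.79 and 0.97. Without mice 3 and 5, 5 of the 6 pairs passed, the mean r was 0.866, and H2-Ab1 with H2-Eb1 had r = 0.79 (exact permutation p = 0.053).

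Among the class I genes 1 of 10 pairs passed, and 5 of 10 passed with values scaled by library totals, where the mean r was 0.630. H2-K1 and Tapbp had r = 0.75 (exact permutation p = 0.027; for rho = 0.74, p = 0.046), which was 0.28 without mice 1 and 5. This call was also lost without mouse 1, 3, 5 or 7 alone (r from 0.59 to 0.74) and without mice 3 and 5 (r = 0.59). The mean r of the 10 pairs was 0.448, with a range from 0.10 to 0.75, and it was 0.256 without mouse 5 and 0.227 without mice 3 and 5. Background shares were 1.61% for H2-K1, 4.21% for H2-D1, 2.39% for B2m, 1.35% for Tap1 and 5.64% for Tapbp. Of the 20 pairs between the classes, 0 passed by the exact permutation test at an unadjusted p under 0.05. Without mouse 3, 3 of them passed, and without mice 3 and 5, 2 passed, Tap1 with Cd74 (r = 0.86, exact permutation p = 0.042) and with H2-Aa (r = 0.87, exact permutation p = 0.036). Over the 8 mice their r ran from -0.24 (H2-D1 with H2-Aa) to 0.67 (B2m with Cd74), with a mean of 0.274, which was -0.129 without mouse 5, 0.125 without mouse 2, 0.507 without mouse 3, 0.420 without mouse 1 and 0.139 without mice 3 and 5. B2m with Cd74 (exact permutation p = 0.072) rested on mice 2 and 5, without which r was -0.28. Whether the class II pairs differ from the class I pairs was not tested, since both rest on the same 8 mice. Mice 2 and 5 were the highest and the lowest for H2-K1, B2m, Tap1 and 3 of the class II genes, and mouse 3 parted the classes. Mouse 3 was above its gene's mean for each of the 5 class I genes, and for each of the 4 class II genes it was below.

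**Figure D4:**
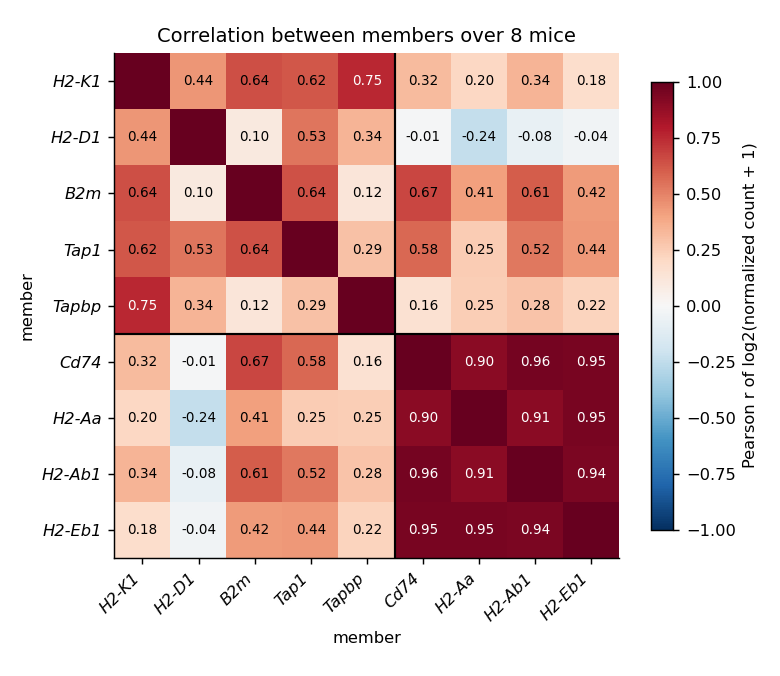
Pearson's r between the 9 genes over the 8 mice, on log2(normalized count + 1), from -1 (blue) to 1 (red), with black lines between class I and class II. The 6 class II pairs lie between 0.90 and 0.96, the 10 class I pairs between 0.10 and 0.75, and the 20 pairs across the classes between -0.24 and 0.67.

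Of 13 transcription factors and cofactors of MHC genes, Ciita and Nlrc5 had the fewest normalized counts and Nfyc, a subunit of the Y box factor, the most, with a mean of 824. Ciita, the class II coactivator, ran from 9.17 in mouse 5 through a median of 12.4 to 23.8 normalized counts in mouse 2, on 10 to 22 counts per library. The share of all tested genes that passed in the positive direction was 3.2% for Cd74, 2.74% for H2-Aa, 4.08% for H2-Ab1 and 2.41% for H2-Eb1. With each of these 4 genes, Ciita was the factor with the highest r and the single one of the 13 that passed. Its r was 0.92 with Cd74 (exact permutation p = 0.0019; for rho = 0.83, p = 0.015), 0.85 with H2-Ab1 (exact permutation p = 0.0093), 0.82 with H2-Eb1 (exact permutation p = 0.015) and 0.80 with H2-Aa (exact permutation p = 0.031). Without the 2 mice farthest from the median of Cd74, r of Ciita with Cd74 was 0.79. The call with H2-Aa was lost without mouse 5 (r = 0.73, exact permutation p = 0.088), and that with H2-Eb1 without mice 3 and 5 (r = 0.70, exact permutation p = 0.12). Rfx5, Rfxap and Rfxank, which build the complex on the X box, passed with none of the class II genes. Nlrc5, the class I coactivator, ran from 21.1 in mouse 5 through a median of 25.8 to 55.1 normalized counts in mouse 2. Its r was 0.86 with Tap1 (exact permutation p = 0.0059; for rho = 0.69, p = 0.069) and 0.76 with B2m (exact permutation p = 0.030; for rho = 0.71, p = 0.058). Both calls were lost without mouse 2, with r = 0.73 for Tap1 and r = 0.38 for B2m. That with B2m was also lost without mouse 5 (r = 0.71) or mouse 6 (r = 0.75). Without mice 3 and 5 neither passed (Tap1 r = 0.81, exact permutation p = 0.099, and B2m r = 0.80, exact permutation p = 0.081). In all, Tap1 passed with 3 of the 13 factors in the positive direction and B2m with 2, where 1.35% and 2.39% of all tested genes did. The others, named after their values were seen, were Rfx5 (r = 0.83) and Irf1 (r = 0.71) with Tap1 and Ciita (r = 0.72) with B2m. Each of these calls was lost without mouse 2, that of Irf1 also without mouse 1, 3, 5, 7 or 8, that of Ciita also without mouse 1, 4, 5, 6 or 8, and both without mice 3 and 5. Rfxank had r = -0.77 with B2m (exact permutation p = 0.020; for rho = -0.64, p = 0.096), the 1 negative call of the list, which was lost without mouse 2, 7 or 8 (r from -0.75 to -0.60). H2-K1 and Tapbp passed with 0 of the 13 factors in either direction by the exact permutation test at an unadjusted p under 0.05. H2-D1 passed with 1, Rfx5, at r = 0.79 (exact permutation p = 0.020), a call lost without mouse 1 (r = 0.70). The share of all tested genes was 4.21% for positive calls with H2-D1 and 3.16% for negative calls with B2m.

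**Figure D5:**
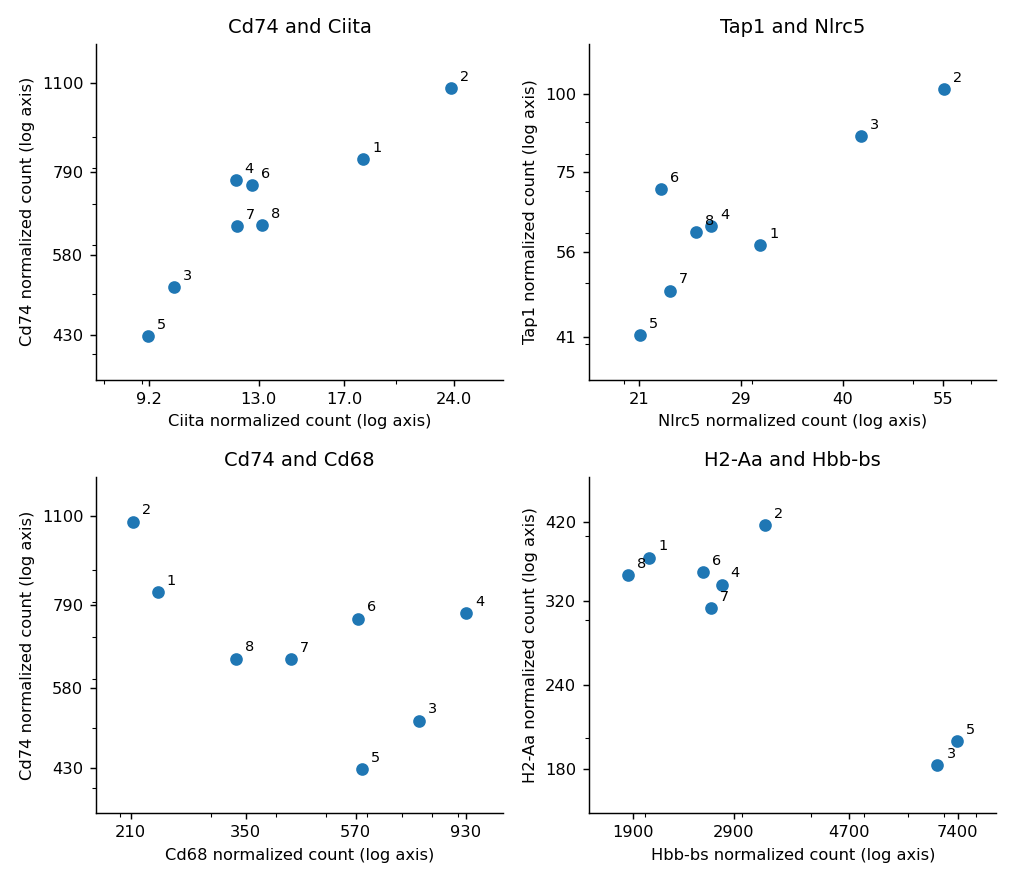
Normalized counts (log axes) of the 8 numbered mice for Cd74 against Ciita, Tap1 against Nlrc5, Cd74 against the macrophage marker Cd68 and H2-Aa against the beta-globin gene Hbb-bs. Mice 2 and 1 are the highest and mice 3 and 5 the lowest for both Cd74 and Ciita, mice 2 and 3 are the highest for Nlrc5 and Tap1, mouse 2 is the lowest for Cd68, and mice 3 and 5 lie apart from the other 6 for Hbb-bs and H2-Aa.

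Interferon-induced genes gave a few partners for each class. Of 20 tested, 3 had a positive r past the threshold with Cd74, 3 with H2-Aa, 3 with H2-Ab1, 2 with H2-Eb1, 4 with Tap1, 3 with B2m, 2 with H2-K1, 2 with Tapbp and 0 with H2-D1 (exact permutation test, unadjusted p under 0.05). The shares of all tested genes ran from 1.35% (Tap1) to 5.64% (Tapbp). Several of these counts fell when 1 mouse was left out. Without mouse 2, none of the 4 calls with Tap1 and none of the 3 with B2m remained, and without mouse 5 none of the 4 with Tap1 did. Both calls with Tapbp were lost without mouse 1, 4, 5 or 8, and 1 of the 2 with H2-K1 without mouse 1, 2, 3 or 8. With each class II gene at least 2 calls remained, whichever single mouse was left out, and without mice 3 and 5 at least 1 did. In the negative direction 1 of the 20 passed, with Tapbp, where 7.37% of all tested genes did, and this call was lost without mouse 1, 2, 3, 4, 7 or 8. Ifit3, an antiviral protein induced by type I interferon, was the most alike with Cd74 (r = 0.95, exact permutation p = 0.00042), H2-Ab1 (r = 0.94, exact permutation p = 0.00037) and H2-Eb1 (r = 0.93, exact permutation p = 0.00012). Ifit3 ran from 36.7 in mouse 5 to 96.2 in mouse 2. With B2m and Tap1 it was Iigp1, a GTPase induced by interferon gamma, at r = 0.86 (exact permutation p = 0.0056) and 0.84 (exact permutation p = 0.011). Both were lost without mouse 2 (B2m r = 0.71, Tap1 r = 0.70), and that with Tap1 also without mouse 5 (r = 0.75) and without mice 3 and 5 (r = 0.74, exact permutation p = 0.11). The guanylate-binding protein gene Gbp5 was the most alike with H2-K1 (r = 0.88, exact permutation p = 0.0017). With H2-Aa it was Gbp7, at r = 0.84, a call lost without mouse 2 (r = 0.81). Transcripts of Ifng itself were counted in 3 of the 8 libraries, with at most 10 counts.

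The other class I heavy chains numbered 11, of which 10 were tested. Mr1, which presents vitamin B metabolites, was the most abundant per kb of these at 216, and H2-M3 was the one below the count minimum. H2-K1 had a positive r past the threshold with 3 of 10, and H2-Q6 led with r = 0.92 (exact permutation p = 0.00097; for rho = 0.88, p = 0.0072). H2-Q6 is the gene besides H2-K1 and H2-D1 among class I genes whose window held the kappa B site, and 2.52% of the 50-base runs of H2-K1 also occur in it. Tap1 passed with 3 of 10, B2m with 3, H2-D1, Tapbp, Cd74, H2-Aa and H2-Ab1 with 1 each, and H2-Eb1 with 0 (exact permutation test, unadjusted p under 0.05), against shares of all tested genes from 1.35% (Tap1) to 5.64% (Tapbp). None of the 3 calls with B2m remained without mouse 2 or mouse 5, none of the 3 with Tap1 without mouse 5, and without mice 3 and 5 none of these 6 did. Of the 3 with H2-K1, at least 2 remained whichever single mouse was left out, and 1 did without mice 3 and 5. The single calls with Cd74, H2-Aa, Tapbp and H2-D1 were also each lost without at least 1 mouse. That with H2-Ab1 was lost without mice 3 and 5 (r = 0.74, exact permutation p = 0.078). In the negative direction 1 gene passed with Tapbp, where 7.37% of all tested genes did, a call lost without mouse 1, 4, 5, 6, 7 or 8. Among 11 genes of peptide supply and loading, 2 had a positive r past the threshold with H2-D1, both lost without mouse 1 or mouse 3, 0 with H2-K1 and Tapbp, and 1 with each other member (exact permutation test, unadjusted p under 0.05). The chaperone Calr was the most abundant per kb (1972) and the immunoproteasome subunit Psmb9 the least (6.17). Psmb9, whose gene overlaps Tap1, had r = 0.90 with B2m (exact permutation p = 0.0014; for rho = 0.95, p = 0.0011) and 0.75 with Tap1 (exact permutation p = 0.032; for rho = 0.62, p = 0.11). The call with Tap1 was lost without mouse 2 (r = 0.59), 3 (r = 0.70), 4 (r = 0.76) or 5 (r = 0.60), and without mice 3 and 5 r was 0.53 (exact permutation p = 0.275). Psme1, a subunit of the proteasome activator, was the most alike of this list with each class II gene, from r = 0.74 with H2-Eb1 to r = 0.87 with H2-Ab1 (exact permutation p = 0.028 and p = 0.012). These calls rest on mice 3 and 5, in which Psme1 was lowest at 307 and 245 normalized counts, and in the other 6 mice r was between -0.16 (H2-Eb1) and 0.35 (H2-Aa) and none passed (exact permutation p from 0.37 to 0.77).

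Among 14 class II accessory genes, 7 were tested. H2-DMa and H2-DMb1, which exchange peptides on class II, had 35.5 ± 7.90 and 30.03 ± 9.47 normalized counts (SD, n = 8). Neither passed with a class II gene, and the list as a whole gave 0 of 7 with each of the 4 (exact permutation test, unadjusted p under 0.05). With the class I genes, H2-K1 had 2 negative calls, of which 1 was lost without mouse 1. Tapbp had 1 negative call, lost without any mouse but mouse 4, and H2-D1 had 1 positive call, lost without mouse 1, 3 or 4. The shares of all tested genes were 1.82% for H2-K1 and 7.37% for Tapbp in the negative direction, and 4.21% for H2-D1 in the positive. H2-Ea-ps, the inactive Ea gene, had a count of 0 in all 8 libraries, which allows up to 3 counts per library. H2-Eb2 had 1 count in 1 library, and H2-Oa had at most 2. The I-E alpha chain was thus not detectable at this depth beside an H2-Eb1 level of 219.

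Class II genes are markers of antigen-presenting cells, so their levels were set beside the markers of such cells. Of 11 macrophage markers 10 were tested, with a summed level from 2649 in mouse 7 through a median of 4677 to 6484 normalized counts in mouse 4. None of the 10 passed with a class II gene in either direction (exact permutation test, unadjusted p under 0.05), and the median r of the list was 0.35 with Cd74, 0.11 with H2-Aa, 0.18 with H2-Ab1 and 0.34 with H2-Eb1, where the median over all tested genes was between -0.03 and -0.01. Cd68, a lysosomal marker, had the lowest r of the list with each of them, from -0.59 (H2-Aa, exact permutation p = 0.12) to -0.48 (H2-Eb1, exact permutation p = 0.23). Of 10 dendritic cell markers, 2 were tested, and Flt3, Xcr1, Clec9a and Batf3 had at most 10 counts in a library. Zbtb46, the one with the most normalized counts, had r = -0.80 with Cd74 (exact permutation p = 0.016, lost without mouse 2 at r = -0.69), -0.76 with H2-Ab1 (exact permutation p = 0.030, lost without mouse 1, 2 or 5) and -0.74 with H2-Eb1 (exact permutation p = 0.037, lost without mouse 1, 2, 5, 6, 7 or 8). Negative shares of all tested genes were 3.34%, 4.0% and 2.17%. Without mice 3 and 5 all of these calls of Zbtb46 remained. Its r was then -0.84 with Cd74, -0.91 with H2-Ab1 and -0.85 with H2-Eb1 (exact permutation p = 0.033, 0.014 and 0.029). Clec10a, the other one tested, had r = 0.35 with Cd74 (exact permutation p = 0.39). Of 7 B cell markers, Ighm was tested, with 223 to 681 normalized counts, and its r was 0.57 with Cd74, 0.65 with H2-Aa, 0.65 with H2-Ab1 and 0.49 with H2-Eb1 (exact permutation p from 0.080 to 0.23), whereas over all 8 libraries Cd79a had 4 counts, Ms4a1 3 and Pax5 2. All 9 T and NK cell markers stayed below 10 counts in every library, with a summed level between 7.34 and 17.3. Neutrophil markers summed to 3.31 in mouse 7 and to between 49.9 and 91.3 in the other mice. The part of these cells in the class II levels was not tested.

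Fibroblast and red blood cell markers were examined next. Of 8 fibroblast markers, 2 passed in the positive direction with Cd74 and 1 with each of H2-Aa, H2-Ab1 and H2-Eb1, where 3.2%, 2.74%, 4.08% and 2.41% of all tested genes did. The call with H2-Aa was lost without mouse 1, 2, 3, 4, 6 or 7, that with H2-Eb1 without mouse 5, and 1 of the 2 with Cd74 without mouse 1, 2, 4, 5 or 6, whereas that with H2-Ab1 remained whichever mouse was left out. With the class I genes, B2m and Tap1 each had 1 positive call, Tapbp 2 negative calls and H2-K1 1. All of these were lost without mouse 8 except that with Tap1, which was lost without mouse 2, 4, 5, 6 or 7. The shares of all tested genes were 2.39% for B2m and 1.35% for Tap1 in the positive direction, and 7.37% for Tapbp and 1.82% for H2-K1 in the negative. The median r of the list was between 0.16 (H2-Aa) and 0.40 (Cd74) with the class II genes. Lum, a matrix proteoglycan, had r = 0.93 with H2-Ab1 (exact permutation p = 0.0020; for rho = 0.95, p = 0.0011) and 0.89 with Cd74 (exact permutation p = 0.0035). It ran from 171 in mouse 5 to 545 in mouse 2. Mfap5, a microfibril protein, had the lowest r of the list, -0.37 with H2-Ab1 (exact permutation p = 0.37) and -0.24 with Cd74 (exact permutation p = 0.56). Of the 5 red blood cell markers, all 5 had a negative r past the threshold with H2-Aa and with H2-Ab1, and 4 did with H2-Eb1, where 2.24%, 4.0% and 2.17% of all tested genes did, and 0 passed with Cd74 (exact permutation test, unadjusted p under 0.05). Without mouse 3 or without mouse 5, none of these calls remained. The mice fall into 2 clusters, so no pooled r is given. Hbb-bs, with the lowest r with H2-Aa, had 6796 and 7373 normalized counts in mice 3 and 5 and from 1861 to 3305 in the other 6, in which r with H2-Aa was 0.27 (exact permutation p = 0.63). Over the same clusters, r with the size factor was -0.87 for H2-Aa and -0.73 for H2-Eb1 (exact permutation p = 0.017 and 0.037). It was -0.66 for Cd74 and for H2-Ab1 (exact permutation p = 0.077 and 0.070). For the class I genes it was between -0.30 (Tapbp) and 0.31 (H2-D1). Whether blood content, the size factor or the muscle itself goes with the lower class II levels of mice 3 and 5 cannot be told apart with 2 mice.

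Markers of muscle fibres were then compared. H2-D1 had a negative r past the threshold with 7 of 9 muscle fibre markers and with 5 of 6 slow fibre markers, where 4.31% of all tested genes did. These counts fell without mouse 1 and without mouse 3. Without mouse 1, 3 of the 7 and 2 of the 5 calls remained, without mouse 3 the 7 calls with fibre markers fell to 3, and without mice 3 and 5 the counts were 3 and 2. H2-K1, Tap1 and Tapbp each had a negative r past the threshold with 1 of the 9 fibre markers, where 1.82%, 1.72% and 7.37% of all tested genes did, and with 0 of the 6 slow fibre markers. The call with H2-K1 was lost without mouse 1, 3, 4, 5, 6, 7 or 8, and that with Tap1 without mouse 1, 2, 3, 5, 6 or 7. Without mice 3 and 5 neither passed, whereas the call with Tapbp remained throughout. With H2-D1, the myosin heavy chain gene Myh2 had r = -0.94 (exact permutation p = 0.0015, and for rho = -0.88, p = 0.0072). The slow myosin light chain gene Myl2 had r = -0.94 with H2-D1 (exact permutation p = 0.0015, and for rho = -0.93, p = 0.0022). Without mice 1 and 4, the farthest from the median of H2-D1, these were -0.86 and -0.85. Myl2 was highest in mouse 1 at 2119 normalized counts and lowest in mouse 4 at 675, the mice in which H2-D1 was the lowest and the highest. H2-D1 had r = -0.80 with the share of counts taken by the 10 most abundant genes (exact permutation p = 0.019), and the part of this share in the relation was not tested. Whether H2-D1 differs from the other members in its relation to fibre markers was not tested. The median r of the 6 slow fibre markers was -0.82 with H2-D1, between -0.53 (Tap1) and -0.08 (Tapbp) with the other class I genes, and between -0.10 (Cd74) and 0.23 (H2-Aa) with the class II genes.

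The neighbours of the genes on chromosome 17 were examined next. H2-K1 and H2-D1 bound an interval of 1262 kb with 136 annotated genes, and 51 tested genes in it belong to no list used here. Of these 51, 5 had a positive r past the threshold with H2-Eb1, 4 each with H2-D1, Tapbp, H2-Aa and H2-Ab1, 3 with Cd74, 1 with H2-K1 and 0 with B2m and Tap1 (exact permutation test, unadjusted p under 0.05). The shares of all tested genes were 2.41% for H2-Eb1, 4.21% for H2-D1, 5.64% for Tapbp, 2.74% for H2-Aa, 4.08% for H2-Ab1 and 3.2% for Cd74. Without mouse 5, 1 of the 5 calls with H2-Eb1 remained, 1 of the 4 with Tapbp, 1 of the 4 with H2-Aa, and none of those with H2-Ab1, Cd74 or H2-K1, and without mouse 1 or mouse 4 none of those with H2-D1 did. Without mice 3 and 5 none of these positive calls remained, but other genes of the 51 passed. They numbered 6 with Cd74, 5 with H2-Eb1, 4 with H2-Ab1 and 0 with H2-D1, Tapbp, H2-Aa and H2-K1. In the negative direction, 3 of the 51 passed with B2m, 3 with Tapbp, 1 with H2-K1, 1 with H2-Ab1 and 0 with the other 5 members. The 3 with B2m were lost without mouse 2 or mouse 7, the 3 with Tapbp without mouse 8 and that with H2-Ab1 without any mouse but mouse 4, whereas that with H2-K1 remained throughout. The shares of all tested genes were 3.16% for B2m, 7.37% for Tapbp, 1.82% for H2-K1, 4.0% for H2-Ab1, 1.72% for Tap1 and 3.34% for Cd74. Cd74 lies on chromosome 18, outside the interval, and its r with the other class II genes was 0.90 to 0.96, where these had 0.91 to 0.95 among themselves.

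Over all tested genes, the most alike to each member were as follows. Cd74 was followed by Cpq (r = 0.97), Blvrb (r = 0.97) and H2-Ab1 (r = 0.96). The miRNA gene Mir5107, which lies within Cd74 and whose counts could be reads of Cd74, led with H2-Aa (r = 0.99) and with H2-Eb1 (r = 0.95), for which Cd74 (r = 0.95) and Ddr1 (r = 0.95) came next. Spast (r = 0.97) and 5530601H04Rik (r = 0.95) followed H2-Aa. H2-Ab1 had Cachd1 (r = 0.98), Tceal1 (r = 0.97) and Tmem64 (r = 0.97). H2-D1 had Cryzl1 (r = 0.99, the same order of the 8 mice), Gm15796 (r = 0.98) and Slc10a3 (r = 0.97). H2-K1 had Dpm3 (r = 0.95), Gm6335 (r = 0.93) and H2-Q6. B2m had 4931406C07Rik (r = 0.95), Gm49776 (r = 0.93) and Wdr41 (r = 0.93), Tap1 had Gprasp2 (r = 0.92), Wdr91 (r = 0.91) and Fam149a (r = 0.91), and Tapbp had Haus8 (r = 0.97), Gm15536 (r = 0.96) and B130024G19Rik (r = 0.96). These were the highest of 15134 values per member, and their adjusted exact permutation p was between 0.13 and 1. Members were among the leading genes of Cd74 and H2-Eb1.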

How the data were processed

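RNA was from 8 mice of 1 group, taken from the sample labels. Per the labels and the study's methods, poly-adenylated RNA was sequenced, and reads were mapped with STAR to GRCm38, counted with summarizeOverlaps and normalized with DESeq2. The annotation release, strand and multi-mapped reads are not given in the sources used here. The deposited signal is a count divided by a size factor. Counts were recovered as whole multiples of 1 read (100% of nonzero values, tolerance 0.01 read). Reads carry no molecular identifiers. Raw counts had been foreseen in the design, and the normalized values were analysed in their place. No library repeated another (chi-square per degree of freedom from 13.6 to 98.5 over 28 pairs). The labels do not say more than that the samples are separate mice, so p-values measure the spread between them.

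Of 55487 identifiers, 55227 were in GENCODE release M21 on GRCm38, which gave symbols, positions and lengths. The 15135 genes that reached 10 counts or more in each of the 8 libraries were tested on log2(normalized count + 1) as described. Named genes are the 9 members, the 3 most alike genes per member, and list genes named by level or by the highest or lowest r. Members, lists, motifs and rules were chosen with earlier results of these data known. Promoter windows (250 bases before to 50 after the start) were from RefSeq, GRCm38.p6, and 7 members had one. A pattern of letters was searched on both strands. The correlation and edgeR fits were tested on simulated data. Alternatives were TMM factors, library totals, DESeq2 size factors, a pseudocount of 5, Spearman's rho, no count filter, an edgeR quasi-likelihood fit on recovered counts, the median, exon union length and leaving out each mouse. Removing GC content and length trends, and leaving out mice 3 and 5, were chosen after seeing the data. The fits ran in R 4.3.3 (DESeq2 1.42.0 and edgeR 4.0.16), and all else in Python 3.11.15 (pandas 2.3.3, numpy 2.4.6).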

Additional observations from a re-analysis of the deposited data

Results flagged for a closer look

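Dixon's test at 95% was run on 22 genes, the 9 members and those whose relation with a member was followed under the alternatives. It marked 0 mice, where chance alone marks about 1.1. The test compares the outermost mouse with the next one. Mice that lie apart together, as mice 3 and 5 do for Hbb-bs and H2-Aa, can therefore go unmarked. With 1 group, no effects of groups could be compared.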

How the results depend on the processing

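The mean r of the class II pairs, 0.935, was between 0.926 and 0.937 under the other scalings, the pseudocount of 5, Spearman's rho and after removal of trends on GC content and length, and between 0.911 and 0.954 with each mouse left out. It moved to 0.866 without mice 3 and 5. The mean r of the class I pairs, 0.448, was highest with library totals (0.630) ran from 0.256 (without mouse 5) to 0.558 with each mouse left out, and was 0.227 without mice 3 and 5. That between the classes, 0.274, reversed to -0.129 without mouse 5, ran up to 0.507 without mouse 3, and thus rests on these mice. The 7 member pairs past the threshold became 11 with library totals, which shift the median gene by up to 0.21 on the log2 scale (mouse 3), and from 6 to 9 with each mouse left out. Genes with a positive r with a member rose without the count filter, as low genes were added to the test, from 243 to 460 for H2-K1, 637 to 998 for H2-D1, 362 to 662 for B2m, 205 to 483 for Tap1, 485 to 739 for Cd74, 415 to 658 for H2-Aa and 364 to 598 for H2-Eb1. The edgeR quasi-likelihood fit called 4 genes positive and 8 negative with H2-Ab1 at an adjusted p under 0.05, and 0 with the other members, against 177 to 852 positive genes per member at an unadjusted p under 0.05. Of 392 comparisons of r for member and gene pairs, 40 lost the call and 3 reversed. Without mice 3 and 5, a setting chosen after seeing the data, r reversed to 0.27 for H2-Aa with Hbb-bs, 0.39 for H2-Ab1 with Hbb-bt and 0.068 for H2-Eb1 with Hba-a2; the cause was not tested. Of 108 comparisons of levels per kb, 4 moved, all with exon union length. No comparison between groups, paired or not, was possible because only 1 group was analysed. Depth limits Ciita (10 to 22 counts), Psmb9 (10 to 29) and Tap1 (44 to 103).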
